A study of Danio rerio with 5 samples.

Results

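Forkhead genes encode transcription factors that bind DNA through a winged-helix domain, and their symbols carry a subfamily letter. The members described here are the genes on the array whose symbol is fox, a letter and a digit. They were found through the RefSeq accession of each probe, and they were 50 genes with 91 probes, out of 13143 named genes and 43603 probes. The samples were whole zebrafish embryos injected at the 1-cell stage and collected at 14 h post fertilization, with total RNA read on 1-colour arrays. The gata5/6 morpholino group (2 arrays) received 6.25 ng of gata5 morpholino and 1.25 ng of gata6 morpholino per embryo in 1 nl, and for the control group (3 arrays) the injection held 7.5 ng of control morpholino. A morpholino is a synthetic oligonucleotide that pairs with an RNA and blocks its translation or splicing, so embryos of this kind are knockdowns and not mutants. The labels add that gata4 expression is reported to be lost too with this combination. The labels do not say which step each morpholino blocks, how many embryos were pooled, or whether replicates came from separate clutches, and the p-values therefore measure only how these samples spread, which may be technical.

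Forkhead factors often act early in a lineage. FoxA factors open chromatin in endoderm, notochord and floor plate, FoxF factors mark lateral plate and gut mesenchyme and respond to Hedgehog signals, and FoxC factors act in paraxial mesoderm. FoxD3 acts in neural crest, FoxI factors in the otic placode and in skin ionocytes, and FoxJ1 factors switch on the genes of motile cilia. FoxH1 carries Nodal signals to the genome together with Smad proteins, FoxO factors are held out of the nucleus by insulin signalling, and FoxM1 drives genes of mitosis.

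On each array, 76.9% to 80.2% of the forkhead probes and 70.1% to 71.1% of all probes gave signals well above background, with 0 saturated spots. Precision is limited by how few arrays there are. Both gata5/6 morpholino arrays came from slide 2 and scan 2, the 3 control arrays from slide 1 and scan 1, so slide, scan and group cannot be told apart. The median SD of a forkhead gene was 0.178 on the log2 scale among gata5/6 morpholino arrays and 0.0886 among control arrays. The targeted genes gata5 and gata6 had log2 changes of 1.98 and 2.85 (limma adjusted p = 0.000191 and 5.76e-05) and gata4, which no injected morpholino was made against, had -0.64 (adjusted p = 0.00520). RNA levels do not check a morpholino that blocks translation. RNA of whole embryos was measured, so fewer cells of a type and less RNA per cell cannot be told apart in any result.

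Of the 50 forkhead genes, 39 exceeded background clearly on every array of 1 group or both and were tested. Values are log2 signals relative to the array's 75th percentile, and changes are gata5/6 morpholino minus control morpholino. Among the 39, 5 genes rose (foxd2, foxf1, foxf2a, foxl2a and foxq1b), 6 fell (foxh1, foxi1, foxj1b, foxm1, foxn4 and foxo3b), and 28 did not pass (limma, Benjamini-Hochberg adjusted p under 0.05 over 10792 genes). That is 12.8% higher and 15.4% lower, where 7.84% of all genes tested were higher and 7.17% lower, or 28.2% against 15% in either direction. The median log2 change was -0.10 over the forkhead genes and 0.04 over all genes. The arrays of the groups did not overlap for 25 of the 39 genes (64.1%), against 50.9% of all genes tested. Groups said below to lie apart or not to overlap are to be read beside that share of 50.9%. An unadjusted p under 0.05 was common among all genes. Counted from the smallest p, foxp1b (limma unadjusted p = 0.0467) ranked 3339 of the 10792 genes. Only foxo3b, foxh1 and foxf1 had a fitted change of at least 2-fold. Leaving out 1 array moved these counts together with those over all genes. Without control replicate 1, 2 or 3 the forkhead counts were 3 higher and 3 lower, with 6.35% to 7.06% of all genes called. They were 7 and 7 without gata5/6 morpholino replicate 1 (18.6% of all genes called) and 5 and 14 without gata5/6 morpholino replicate 2 (48.9% of all genes called). In these last fits 1 gata5/6 morpholino array is left, the spread comes from the control arrays alone, and the lone array is assumed to vary as they do, so a call gained or held there adds no support. With group-wise variances, a setting chosen after seeing the data, 1 forkhead gene was higher and 2 were lower, with 547 genes called in all.

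**Figure D1:**
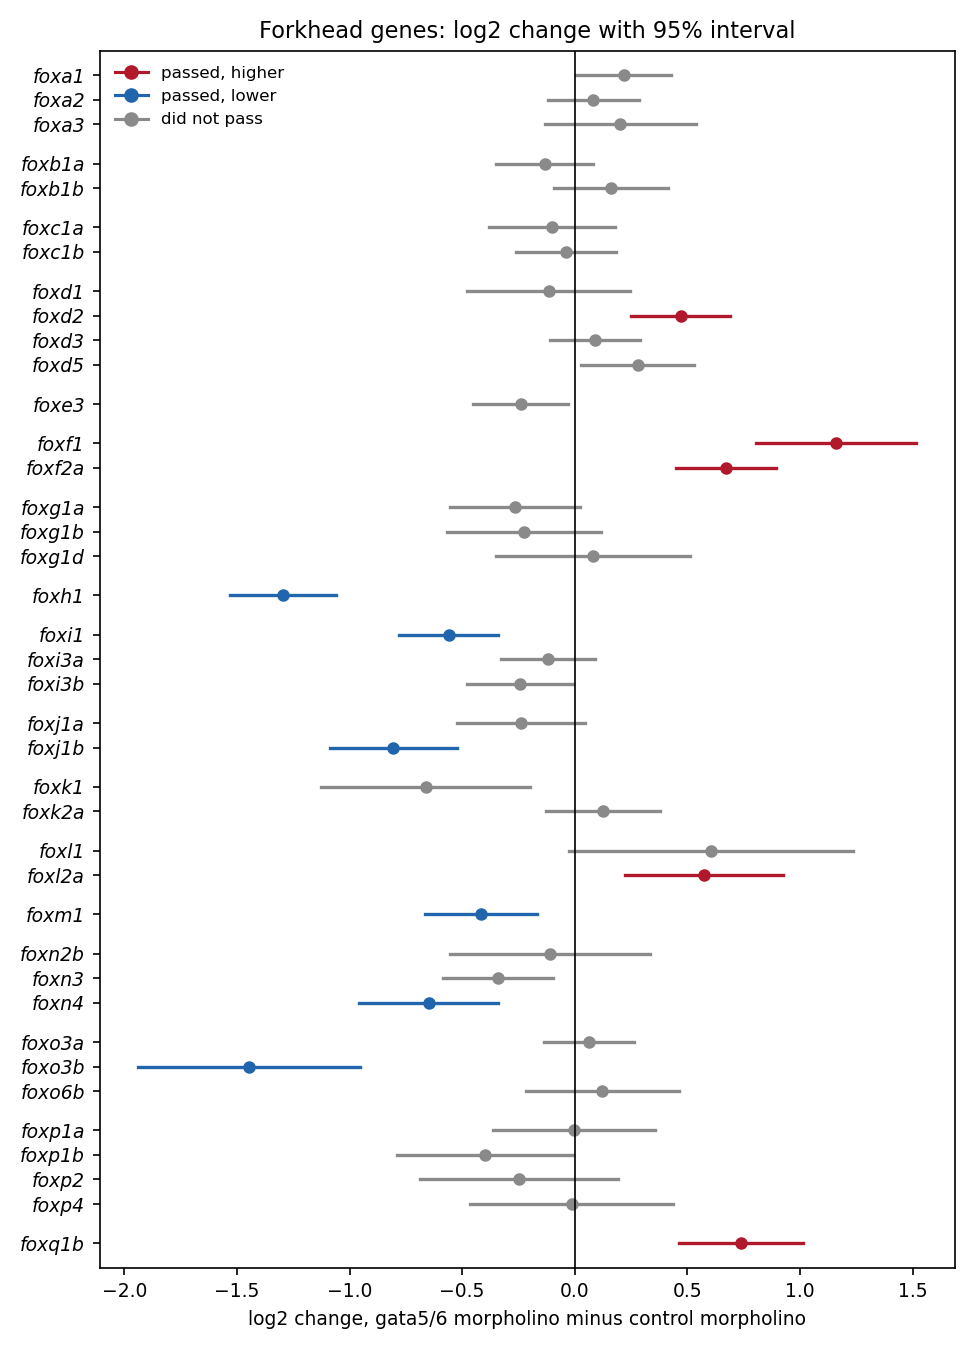
Log2 change (gata5/6 morpholino minus control morpholino, x axis) of each of the 39 tested forkhead genes with its 95% interval from limma, ordered by subfamily letter. Red genes passed and were higher (5), blue genes passed and were lower (6), and grey genes (28) did not pass. The point farthest below 0 is foxo3b at -1.44 and the one farthest above 0 is foxf1 at 1.16.

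Of the 3 tested genes placed here under lateral plate and gut mesenchyme (foxf1, foxf2a and foxl1), foxf1 and foxf2a rose. Over all genes tested 7.84% were higher. The gene foxf1, which in mouse is needed in the mesenchyme around the gut and lung, read -2.45 and -2.08 on the gata5/6 morpholino arrays and -3.51, -3.27 and -3.50 on the control arrays. Every gata5/6 morpholino value lay above every control value, by a log2 change of 1.16 (2.23-fold, SE 0.145, limma adjusted p = 0.00498). Its second probe gave 1.00, a fitted value that is not a bound, because all 3 control arrays read that probe as not well above background. The related gene foxf2a read -3.20 and -3.23 after gata5/6 morpholino and -3.95, -3.79 and -3.92 in controls. Its groups did not overlap either, and it was 1.59-fold higher (log2 change 0.67 with SE 0.0899, adjusted p = 0.00641). Another mesenchyme gene, foxl1, known in mouse from the gut wall, read -4.88 and -4.38 after gata5/6 morpholino and -4.83, -5.59 and -5.28 in controls. It was well above background on 2 of the 3 control arrays, its groups overlapped, and it did not pass (log2 change 0.61, 95% interval -0.02 to 1.24, adjusted p = 0.171). The foxf1 call held in 15 of the 16 alternative settings. These overlap, and they include the fits with 1 gata5/6 morpholino array and with the replicate number as a block, which add no support. The foxf1 call was lost with default normexp (log2 change 0.33), a model-based background correction whose estimate failed for control replicate 3. The foxf2a call was lost under group-wise variances (limma adjusted p = 0.0721), and its change turned to -0.16 with default normexp. With repaired normexp, in which all arrays share 1 set of background parameters and which was chosen after seeing the data, both passed at smaller changes of 0.70 (foxf1) and 0.30 (foxf2a).

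In a list of other lateral plate genes, 5 of 8 tested fell, 1 rose (prrx1a, 0.56, limma adjusted p = 0.00932) and 2 did not pass. By comparison, 7.84% of all genes tested were higher and 7.17% lower, but the list was chosen with earlier results known. The 8 together had a median of -0.64, against 0.04 over all genes. Of the 5 that fell, tbx20 and bmp16 were kept only through the control group, where they are high, which favoured a fall. The T-box gene tbx20, which no gata5/6 morpholino array read as well above background, passed as lower (limma adjusted p = 0.00160). It was 2.61-fold lower than in controls once its dim signals were raised to the lowest clearly detected signal. That fold is not a bound, and with repaired normexp the log2 change of tbx20 was -0.363. The signal gene bmp16 had a log2 change of -1.80 (adjusted p = 0.000716) and exceeded background clearly on only 1 array of the gata5/6 morpholino pair, with -0.444 under repaired normexp. The gene hand2, a factor gene of the lateral plate and heart, had -1.11 (adjusted p = 0.00273). Hedgehog signalling lies upstream of FoxF genes in gut mesenchyme. Among 10 tested Hedgehog genes none passed, and 8 had a change below 0, where 44.7% of all genes did. Changes ran from -0.52 (ihhb, adjusted p = 0.0938) to 0.29 (smo, adjusted p = 0.0885). Both of those genes had an unadjusted p under 0.05, as did many of all genes tested. For the Hedgehog target gene gli1 the change was -0.03 (adjusted p = 0.928).

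The FoxA genes of endoderm and midline did not pass. The gene foxa1 read 1.57 and 1.70 after gata5/6 morpholino and 1.44, 1.41 and 1.39 in controls. Its groups did not overlap, but the change was small (log2 change 0.22, 95% interval 0.01 to 0.43, adjusted p = 0.148). For foxa2, which marks floor plate, notochord and endoderm, the arrays read 2.85 and 2.84 after gata5/6 morpholino and 2.81, 2.73 and 2.75 in controls (log2 change 0.08, interval -0.12 to 0.28). The groups again did not overlap. The lower end of the foxa2 interval was -0.12, but the interval assumes equal spread in both groups. Slide and group cannot be told apart either, so it does not exclude a larger fall. The gene foxa3, expressed in the gut and liver primordia, read 0.70 and 1.01 after gata5/6 morpholino and 0.74, 0.73 and 0.48 in controls, with overlapping groups (log2 change 0.20, interval -0.13 to 0.54). All 8 kept probes of these 3 genes gave a change above 0, from 0.08 to 0.51. Probes of a gene are not replicates, and over all genes 44.7% had a change below 0, so this adds no support for a rise. Without gata5/6 morpholino replicate 1, where only the control arrays give the spread, foxa1 was at 0.28 (adjusted p = 0.0461).

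Endoderm genes other than FoxA moved in both directions. Of 9 tested endoderm genes, 4 rose, 3 fell and 2 did not pass, with a median of 0.07. Over all genes tested 7.84% were higher and 7.17% lower, but the list was chosen with earlier results known. The gene onecut1, a liver and pancreas factor, fell with a log2 change of -1.44 (adjusted p = 0.00440), while the homeobox genes mixl1 and hhex were higher, at 1.00 (adjusted p = 0.00494) and 0.55 (adjusted p = 0.00882). With repaired normexp mixl1 passed at 0.55. The hhex call was lost without any 1 of the control arrays (0.54 to 0.55, adjusted p = 0.0543 to 0.0664). By contrast, none of 10 notochord and floor plate genes passed, with changes from -0.41 (col2a1a) to 0.22 (spon1b) and a median of 0.01. The unadjusted p was under 0.05 for 1 of the 10, a level that many of all genes reached.

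The Nodal factor gene foxh1 fell. Zebrafish schmalspur mutants carry a lesion in it and show midline and left-right defects. Its signal was -1.78 and -1.74 after gata5/6 morpholino, against -0.46, -0.57 and -0.36 in controls. The groups lay more than 1 log2 unit apart, which was far beyond the spread within either, and the gene was 2.45-fold lower (log2 change -1.30 with SE 0.0956, limma adjusted p = 0.000815). The 2 other probes gave -1.44 and -1.05. The foxh1 call held in 15 of 16 alternative settings, again counting the fits that add no support. It was lost with default normexp (-1.04, limma adjusted p = 0.106). The range of the change was -1.35 to -1.24 when any 1 array was left out.

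Among 8 tested genes of Nodal signalling 1 fell and 7 did not pass, where 7.17% of all genes tested were lower. All 8 had a change below 0, where 44.7% of all genes did. These 8 include spaw, which the filter kept only through the control group, which favoured a change below 0. Its control signals were dim too (-5.17, -5.26 and -5.22), near the lowest clearly detected signals of those arrays (-5.77 to -5.54). The gene that fell was tdgf1, which encodes the Nodal co-receptor One-eyed pinhead. It read 2.59 and 2.22 after gata5/6 morpholino and 3.37, 3.29 and 3.30 in controls (log2 change -0.91 with SE 0.129, adjusted p = 0.00779). Its groups did not overlap, and its second probe gave -0.87. The organizer and head mesoderm factor gene gsc was at -0.55 (adjusted p = 0.0635), and the median of the list was -0.33.

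**Figure D2:**
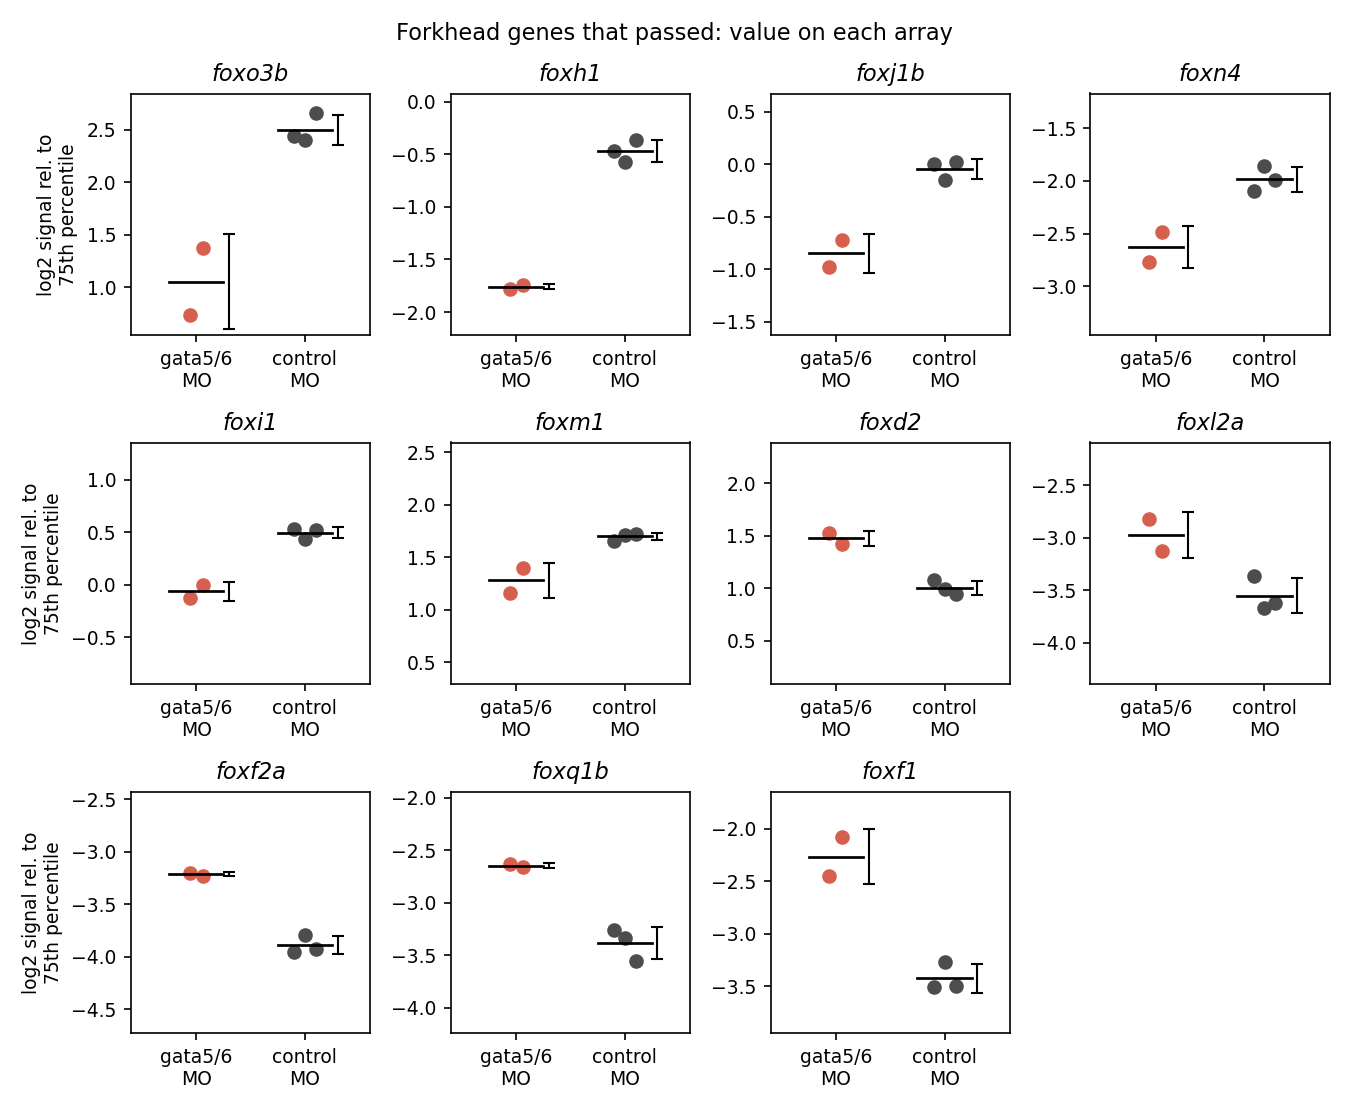
Log2 signal relative to the array's 75th percentile (y axis, each panel 2.3 log2 units high) for the 11 forkhead genes that passed, ordered from the lowest to the highest log2 change. Points are arrays (2 gata5/6 morpholino at left, 3 control at right), horizontal bars are means and error bars are SD. No panel shows overlap between the groups, and the gata5/6 morpholino pair is widest for foxo3b.

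Of the 3 FoxO genes tested, foxo3b fell. It had the lowest fitted change of all the forkhead genes tested, with 0.73 and 1.37 after gata5/6 morpholino and 2.44, 2.40 and 2.66 in controls. Both gata5/6 morpholino arrays were far below the controls but differed from each other by more than the controls did, and the gene was 2.72-fold lower (log2 change -1.44 with SE 0.201, adjusted p = 0.00742). Its other probes gave -1.33 and -1.90, the second a fitted value and no bound, since both gata5/6 morpholino arrays read that probe as not well above background. Without gata5/6 morpholino replicate 1 the change was -1.12 and without replicate 2 it was -1.76. The duplicate gene foxo3a read 2.33 and 2.37 after gata5/6 morpholino and 2.26, 2.33 and 2.28 in controls. The groups were just apart, and it did not pass (log2 change 0.06, interval -0.14 to 0.26). Its other 2 probes gave -0.27 and -0.11, so its probes disagreed in sign. The neural FoxO gene foxo6b was at 0.12 with overlapping groups (adjusted p = 0.577). Among 11 tested genes that FoxO factors are known to switch on, or that answer to insulin and stress, 4 passed, all of them lower, and 7 did not (median -0.19). Over all genes tested 7.17% were lower. In this list 8 of the 11 had a change below 0, where 44.7% of all genes did, and the highest change was in ccng2 (0.42, adjusted p = 0.0689). The 3 with the smallest adjusted p were txnipa (-0.69, adjusted p = 0.00859), a regulator of glucose uptake, and the stress genes sesn3 (-0.75, adjusted p = 0.0138) and sesn1 (-0.41, adjusted p = 0.0304). The sestrin gene sesn1 and gadd45aa (-0.77, adjusted p = 0.0320) also belong to the p53 response. The sesn1 call was lost without any 1 of the control arrays (-0.45 to -0.38), and without control replicate 3 those of sesn3 (adjusted p = 0.0672) and txnipa (adjusted p = 0.0538) were lost too.

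The mitotic factor gene foxm1 read 1.16 and 1.40 after gata5/6 morpholino, against 1.66, 1.71 and 1.72 in controls. The groups did not overlap, and the fall was 1.33-fold (log2 change -0.42 with SE 0.102, adjusted p = 0.0464). The other probes gave -0.72 and -0.39. It was a borderline call, lost without any 1 of the control arrays (-0.44 to -0.40, adjusted p = 0.151 to 0.181). Of 8 tested genes of mitosis that FoxM1 is known to drive, none passed, where 7.84% of all genes tested were higher and 7.17% lower. A change below 0 was found for 6 of the 8 (median of the list -0.06), against 44.7% of all genes. Those of the list with an unadjusted p under 0.05, a level that many of all genes reached, were plk1 (-0.27, adjusted p = 0.0808) and aurka (-0.25, adjusted p = 0.115). A further gene linked to growth control, foxk1, known in mouse from muscle progenitors, read -1.91 and -1.40 after gata5/6 morpholino and -1.12, -0.76 and -1.09 in controls. It did not overlap between groups and did not pass (log2 change -0.66, interval -1.13 to -0.20, adjusted p = 0.0720). With repaired normexp, chosen after seeing the data, foxk1 passed (-0.51, adjusted p = 0.0471). With the replicate number as a block it also passed (-0.71, adjusted p = 0.0011). Control replicate 3 has no partner in that fit, so the change rests on the other arrays and the pass adds no support. Without that array and without the block, foxk1 did not pass (-0.71, adjusted p = 0.158). Its relative foxk2a was at 0.13 (adjusted p = 0.446).

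Of the FoxI genes, foxi1 fell. This gene, which zebrafish need to form the otic placode and pharyngeal arches, read -0.12 and -0.00 after gata5/6 morpholino and 0.53, 0.43 and 0.52 in controls. The groups did not overlap, and it was 1.47-fold lower (log2 change -0.56 with SE 0.0894, adjusted p = 0.0124). The second probe gave -0.51. That call was lost without any 1 of the control arrays (-0.59 to -0.54, adjusted p = 0.0512 to 0.0766). The ionocyte genes foxi3a and foxi3b did not pass, at -0.12 (interval -0.33 to 0.09) and -0.24 (interval -0.48 to -0.01, adjusted p = 0.148). Neither overlapped between groups, which held for 50.9% of all genes tested. Over all genes tested 7.84% were higher and 7.17% lower. Of 6 tested ionocyte genes, 1 rose and 5 did not pass (median -0.16). The gene that rose was ca2, encoding a carbonic anhydrase found also outside ionocytes, with 1.84 (adjusted p = 0.000135). Of 8 otic and pharyngeal genes 1 rose and 7 did not pass (median -0.04). This was the hair cell factor gene atoh1a (0.60, adjusted p = 0.0271), and its call was lost without any 1 control array (0.53 to 0.66), without gata5/6 morpholino replicate 1 (0.49, adjusted p = 0.0641) and with repaired normexp (0.19).

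The cilia genes foxj1a and foxj1b are duplicates. Zebrafish use foxj1a in Kupffer's vesicle, floor plate and kidney, and foxj1b in the ear among other sites. The foxj1b signal was -0.98 and -0.72 after gata5/6 morpholino and -0.00, -0.15 and 0.02 in controls. It was 1.75-fold lower with groups apart (log2 change -0.81 with SE 0.115, adjusted p = 0.00809), and its other probes gave -1.12 and -0.63. The probe at -1.12 was well above background on 1 of the pair of gata5/6 morpholino arrays and was kept only through the control group. For foxj1a the arrays read 0.94 and 1.19 after gata5/6 morpholino and 1.39, 1.196 and 1.32 in controls, just short of overlap, and it did not pass (log2 change -0.24, interval -0.52 to 0.04). Its 3 probes disagreed in sign, from -0.24 to 0.10. None of 10 tested genes of motile cilia passed, where 7.84% of all genes tested were higher and 7.17% lower. The list had a median of -0.06 and its highest change in odad1 (0.30). The unadjusted p was under 0.05 for 1 of the 10, a level that many of all genes reached. The foxj1b call was lost under group-wise variances (adjusted p = 0.0586) and with default normexp (-0.68, adjusted p = 0.328).

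The FoxC genes and foxd3 did not pass. The somite genes foxc1a and foxc1b had log2 changes of -0.10 (interval -0.38 to 0.18) and -0.04 (interval -0.26 to 0.18), with overlapping groups for both. In a list of somite and presomitic genes, 1 of 11 rose (tcf15, 0.47, limma adjusted p = 0.0453) and 10 did not pass, with a median of 0.01. Over all genes tested 7.84% were higher and 7.17% lower. The tcf15 call was lost without any 1 control array (0.42 to 0.49) or gata5/6 morpholino replicate 1 (0.33). The crest gene foxd3 read 1.19 and 1.26 after gata5/6 morpholino and 1.14, 1.15 and 1.12 in controls. This small shift did not overlap but did not pass (log2 change 0.09, interval -0.11 to 0.29). Of 10 neural crest genes, 1 rose, 1 fell and 8 did not pass (median -0.14). The calls were the homeobox gene dlx2a (-0.56, adjusted p = 0.0378) and the paired-box gene pax7a (0.54, adjusted p = 0.0398). Both were lost without any 1 control array (-0.63 to -0.48 and 0.51 to 0.60). The dlx2a call was lost also without gata5/6 morpholino replicate 1 (-0.43), and that of pax7a with repaired normexp (0.24).

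Another FoxD gene, foxd2, rose. It read 1.52 and 1.42 after gata5/6 morpholino and 1.07, 0.99 and 0.95 in controls, a 1.39-fold difference with groups apart (log2 change 0.47 with SE 0.0891, adjusted p = 0.0214), and its second probe gave 0.48. The call was lost without any 1 control array (0.44 to 0.51, adjusted p = 0.0821 to 0.117) and with the replicate number as a block (0.44, adjusted p = 0.0696). The neural plate and tailbud gene foxd5 did not overlap between groups (2.01 and 2.22 after gata5/6 morpholino, against 1.89, 1.86 and 1.77 in controls) and did not pass (0.28, interval 0.03 to 0.53). For foxd1, a gene of the temporal retina, the groups overlapped (-0.12, interval -0.48 to 0.25).

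Among forkhead genes of the nervous system, foxn4 fell. It is a gene that acts in retinal progenitors, in spinal interneurons and in the atrioventricular canal of the zebrafish heart. Its signal was -2.77 and -2.49 after gata5/6 morpholino and -2.10, -1.86 and -1.99 in controls. The groups did not overlap, and it was 1.57-fold lower (log2 change -0.65 with SE 0.126, adjusted p = 0.0230). The other kept probes gave -0.69 and -0.40. That call too was lost without any 1 control array (-0.70 to -0.59, adjusted p = 0.0572 to 0.0930). Among its relatives, foxn3 had -0.34 (adjusted p = 0.0752) with groups apart, while its other probes gave -0.74 and -0.36, and foxn2b had -0.11 with overlapping groups. The telencephalon gene foxg1a read 0.76 and 1.08 after gata5/6 morpholino and 1.21, 1.14 and 1.197 in controls, and did not pass (-0.26, adjusted p = 0.188). Its relatives foxg1b and foxg1d were at -0.23 and 0.08 with overlapping groups. Of 8 forebrain genes none passed (median -0.09), where 7.84% of all genes tested were higher and 7.17% lower. The unadjusted p was under 0.05 for 2 of the 8, a level that many of all genes reached. The lens gene foxe3 was at -0.24 (interval -0.45 to -0.03, adjusted p = 0.119) with groups apart. The neural tube genes foxb1a and foxb1b were at -0.13 and 0.16. The 4 FoxP genes (foxp1a, foxp1b, foxp2 and foxp4), active in brain, heart and blood lineages, ran from -0.40 (foxp1b, adjusted p = 0.151) to -0.00 (foxp1a), and none passed.

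The genes foxl2a and foxq1b rose. The gonad factor gene foxl2a read -2.82 and -3.13 after gata5/6 morpholino and -3.36, -3.66 and -3.62 in controls, 1.49-fold higher with groups apart (log2 change 0.57 with SE 0.142, adjusted p = 0.0478), and its other probes gave 0.63 and 0.75. It had the weakest support of the 11 calls, kept in 5 of 16 alternative settings, again counting the fits that add no support. It was lost among others with quantile normalization (0.57, adjusted p = 0.0686), without any 1 control array (0.52 to 0.67) and without gata5/6 morpholino replicate 1 (0.42), and it turned to -0.03 with default normexp. With repaired normexp it passed at 0.35 (adjusted p = 0.0494). The gene foxq1b read -2.63 and -2.66 after gata5/6 morpholino and -3.26, -3.34 and -3.55 in controls. The groups lay apart, and it was 1.67-fold higher (log2 change 0.74 with SE 0.113, adjusted p = 0.0105), a call lost under group-wise variances (adjusted p = 0.146) and with default normexp (0.04). With repaired normexp it passed at 0.42.

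In the RefSeq gene table of assembly GRCz12tu, forkhead genes of the Q, F and C subfamilies lie beside each other in a pair of clusters. The table was used for gene order alone, because the array was designed on another build. On chromosome 20 the order is foxq1b, foxf2b, foxc1b, and on chromosome 2 it is foxc1a, foxf2a, foxq1a with 1 protein-coding gene between the first pair. Within the first cluster foxq1b rose by 0.74 while foxc1b was at -0.04, and within the second foxf2a rose by 0.67 while foxc1a was at -0.10. The genes foxf2b and foxq1a have no tested value. On chromosome 8, foxe3 (-0.24) and foxd2 (0.47) are neighbours.

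Differences between relatives were computed within each array, as 1 gene's log2 signal minus the other's, for 5 pairs chosen after their values were seen. The change of foxo3b was 1.51 log2 units below that of foxo3a (difference of changes -1.51), and that of foxj1b differed from foxj1a by -0.57. The differences were -0.44 for foxi1 minus foxi3a, -0.32 for foxi1 minus foxi3b and 0.38 for foxd2 minus foxd3. In each of the 5 pairs the gata5/6 morpholino arrays lay outside the range of the control arrays. Each pair sets a called gene against a relative that did not pass, so the choice favoured this separation and it adds no support. No share over other gene pairs was computed. An exact permutation test over arrays (two-sided, as double the one-sided p) gave p = 0.2 for each, also after adjustment over the 5 pairs. For 2 against 3 arrays 0.2 is the smallest p this form of the test can give, so it cannot decide.

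Probes of the same gene share its transcript and are not replicates of the condition. Of the 19 forkhead genes with more than 1 kept probe, 16 had all probes on the same side of 0. These include all 9 of the called genes with several probes, and 7 of the 10 genes that did not pass. The exceptions were foxj1a, foxo3a and foxp1a, and the widest of them was foxp1a, whose probes ran from -0.00 to 0.89, the last from a probe well above background on 1 of 3 control arrays. For 6 genes (foxd2, foxf1, foxh1, foxi1, foxj1b and foxo3b) every kept probe passed when probes were tested singly over all 30618 probes. Of these, 1 foxf1 probe and 1 foxo3b probe were kept only through the group where they are high and so had to differ. The filter also kept 1 foxj1b probe only through the control group, where it is high, which favoured a fall. That leaves 1 informative probe for foxf1 and 2 each for foxj1b and foxo3b. The foxl2a and foxm1 calls were lost in that test for the probe used for the gene (adjusted p = 0.0607 and 0.0650). Each called gene was called on 1 of its own probes, which favoured probes on the same side of 0. No share over the other genes with several probes was computed, so this agreement adds no support.

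**Figure D3:**
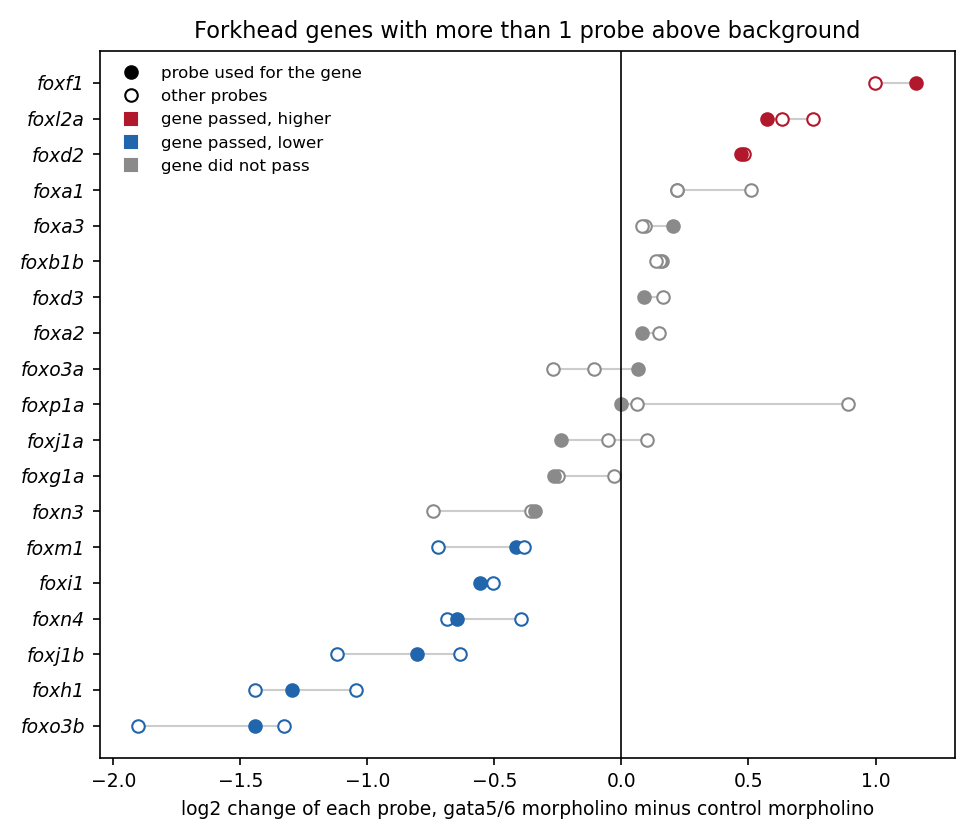
Log2 change of each kept probe (x axis) for the 19 forkhead genes with more than 1 probe above background, sorted by the change of the probe used for the gene (filled). Open circles are the other probes. Probes of each called gene stay on 1 side of 0, and those of foxj1a, foxo3a and foxp1a cross it.

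**Figure D4:**
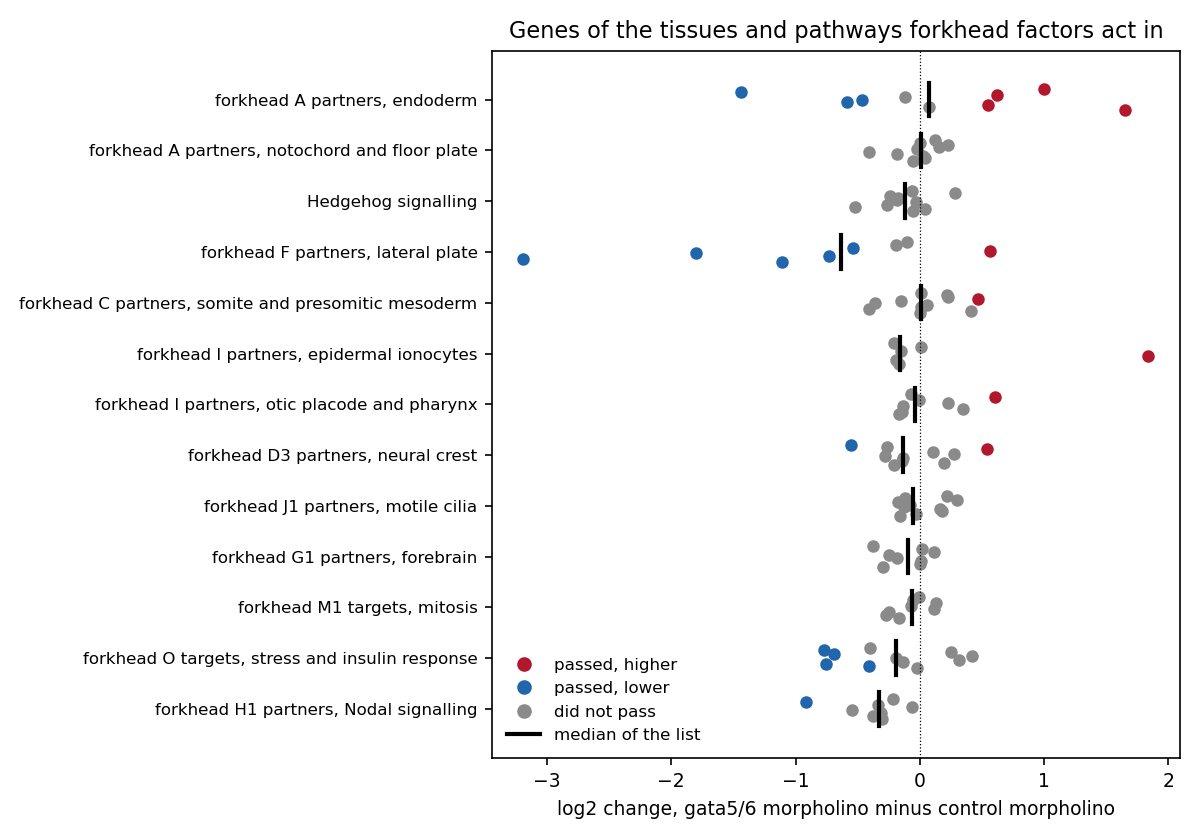
Log2 change (x axis) of each tested gene in 13 lists of genes from the tissues and pathways where forkhead factors act, with the median of each list as a black bar. The lateral plate list has the lowest median (-0.64) and the Nodal list the next lowest (-0.33). These 2 lists include tbx20, bmp16 and spaw, which were kept only through the control group. The notochord and floor plate, Hedgehog, cilia, forebrain and mitosis lists hold no gene that passed in the fit plotted.

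The remaining 11 forkhead genes on the array had no probe well above background on every array of either group and were not tested. These were foxd7, foxg1c, foxi2, foxl2l, foxl3, foxn1, foxo1a, foxo1b, foxq1a, foxq2 and foxr1. Of these, foxi2 came nearest, with 1 of 2 gata5/6 morpholino arrays and 2 of 3 control arrays well above background for its best probe. The genes foxg1c and foxq1a reached it on 1 gata5/6 morpholino array and foxo1a on 1 control array. A further 12 forkhead genes of the RefSeq table, among them foxf2b, foxj2 and foxo4, were matched to no probe and were not analysed here.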

How the data were processed

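Total RNA of whole embryos was labelled with Cy3 and hybridised to 5 Agilent arrays. Per the file headers, Agilent Feature Extraction 10.7.3.1 made the deposited intensity values, while the submitters' processing notes name 10.7.1.1. The deposited processed intensity had its background subtracted and was spatially detrended, per the file headers, but was not scaled between arrays. The deposited value table holds log2 values whose columns share 1 distribution, and no source used here names the authors' method for it.

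Each array's processed signals were divided by their 75th percentile and put on the log2 scale (percentiles of 506 to 574 intensity units). Spots of a probe were averaged, 52 probes were left out for outlier spots, and 30618 of 43603 probes were kept, those flagged as clearly above background on all arrays of 1 group or both. Accessions were matched without versions to the RefSeq table of GRCz12tu, for 58.7% of probes. A gene was its brightest kept probe, which gave 10792 genes. The test was limma 3.58.1 under R 4.3.3, as lmFit followed by eBayes with group as the only term. It left 3 residual degrees of freedom, and two-sided p-values were adjusted by Benjamini-Hochberg over all genes. The fold of tbx20 is for a gene dim on all arrays of 1 group. There, each dim array was given its own signal or the lowest signal of any clearly detected probe, whichever was higher, before group means were taken. An undetected probe can lie above that lowest signal, so the fold is not a bound. On simulated arrays with 10792 genes, 24% of true log2 changes of 0.5 were called, 66% of 1 and 94% of 2. In the real arrays the spread was unequal, with a median SD over all genes of 0.1697 in the knockdown group and 0.0654 in the control group. Whether the simulated shares hold for groups of such unequal spread was not tested, so they are not taken as the power of these arrays.

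All 50 forkhead genes on the array are named. Other genes come from 13 lists, by the 3 smallest adjusted p among members that passed, and any further gene was picked with its values in view. Some genes of the lists are not reported here. The members and lists were chosen with earlier results of these data known. Replicate numbers in the labels do not state a shared clutch or day, so no block was used. Alternatives were other background corrections (normexp, default and repaired), quantile normalization, the authors' values, other filters and probe rules, other variance models, the replicate block and leaving out each array.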

Additional observations from a re-analysis of the deposited data

How the results depend on the processing

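In 16 alternative settings, the 11 forkhead calls kept their direction except that foxf2a (-0.16) and foxl2a (-0.0292) reversed with default normexp background correction, whose estimate failed for control replicate 3. That setting left 0 forkhead genes higher, 0 lower and 43 genes called in all. Repaired normexp, with 1 set of parameters for all arrays and chosen after seeing the data, kept all 11 calls and gained foxk1. Its changes were smaller for the dim genes foxf1, foxf2a, foxl2a and foxq1b, and it called 1 Hedgehog and 2 mitosis genes. Lists with no call held up to 6 Hedgehog, 5 cilia, 3 mitosis, 2 notochord and floor plate and 2 forebrain genes called when 1 gata5/6 morpholino array was left out. The replicate block called 1 Hedgehog gene and quantile normalization 1 mitosis gene. A variance for each group, also chosen after seeing the data, kept foxf1, foxh1 and foxo3b (1 higher, 2 lower, 547 in all). Leaving out 1 array gave 3 to 7 forkhead genes higher, 3 to 14 lower and 685 to 5280 genes called in all. Reversed values among genes that did not pass, with default normexp, were -0.36 (foxg1d), -0.33 (foxl1) and -0.36 (foxo6b), and among genes of the lists -0.23 (atoh1a) and -0.24 (pax7a). The foxp1a change, -0.00 in the report, was 0.0835 with repaired normexp, 0.0021 with quantile normalization, 0.0028 with the authors' values, 0.32 with the mean over probes, and between -0.207 and 0.20 when 1 array was left out. The foxo3a change was -0.11 with the mean over probes. Leaving out 1 array also turned the sign of foxc1a (-0.232 to 0.0288), foxd1 (-0.284 to 0.0521), foxg1d (-0.191 to 0.354), foxn2b (-0.419 to 0.197, adjusted p = 0.00864 at the lower end), foxo6b (-0.0692 to 0.315), foxp2 (-0.537 to 0.0395, adjusted p = 0.0142 at the lower end) and foxp4 (-0.326 to 0.298, adjusted p = 0.0186 and 0.0459, so called in opposite directions). The causes were not tested. With the replicate block the counts were 5 higher, 7 lower and 1784 in all. It lost foxd2 and foxm1 and gained foxk1, foxl1 and foxp1b. Control replicate 3 has no partner in that fit, so its changes are those without that array and few residual degrees of freedom are left. Calls gained there add no support. Deviations of same-numbered arrays correlated at 0.12 and 0.20 over genes, and those of differently numbered arrays at -0.20 to 0.088. With 2 gata5/6 morpholino arrays the deviations of one mirror those of the other, so these values are not separate. There are only 2 same-numbered pairs and the labels state no shared source, so the numbers are not taken as pairs. Slide or scan as a block could not be fitted, since each held 1 group.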
